A study of Mus musculus with 11 samples.

Results

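The receptors described are those encoded by Procr, Tnfrsf12a, Pvr, Cd44 and Amigo2, 5 genes for proteins at the cell surface. All rows with one of these gene symbols were taken from the 5 deposited transcript tables, which gave 12 transcripts out of 2510, or 5 genes out of 1967. These genes were chosen by their measured values in the same contrast of ATP and Control, so their group differences are given as a description, with no test. The libraries came from primary cultures of enteric glia (mouse enteric glial cells, msEGCs) of strain BL6 (adult C57BL/6 mice by the study's methods), grown from the muscularis of the small bowel. By the study's methods these cultures are enriched in GFAP-positive cells and also hold fibroblasts. The ATP group comprised 6 libraries from cultures treated with 100 µM ATP for 6 h, and the Control group comprised 5 libraries. The treatment field of the labels names ATP for all 11 libraries, Controls included, and the groups were therefore taken from the library titles.

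The protein C receptor Procr binds protein C and its activated form and is best known from endothelium, where it favours the activation of protein C. Tnfrsf12a, also called Fn14, is the receptor for the cytokine TWEAK and signals through TRAF adaptors to NF-κB; it is known to be inducible by growth factors and injury. Pvr, the poliovirus receptor or CD155, is a nectin-like adhesion molecule that is bound by the lymphocyte receptors CD226, TIGIT and CD96. Cd44 is the main receptor for the matrix polymer hyaluronan, is made in many splice forms and is widely used as a marker of reactive astrocytes. Amigo2 is an adhesion protein with leucine-rich repeats and is one of the markers published for the A1 type of reactive astrocyte.

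In GENCODE M21 on GRCm38, Procr lies on chr2:155751117-155755471 on the plus strand. On the minus strand lie Tnfrsf12a on chr17:23675445-23677468, Pvr on chr7:19903578-19921160, Cd44 on chr2:102811141-102901665 and Amigo2 on chr15:97244125-97247287. These positions cover whole genes, introns included, and the authors' own build was not given in the sources used here. Bases upstream of the transcription start are shown for the gene with the largest ratio, for the next one, and for the gene that was lower with ATP. They are RefSeq sequence on GRCm38.p6, read 5′ to 3′ on the strand of the gene, and they end where the first annotated transcript begins. Capitals mark matches, on either strand, to the AP-1 site TGANTCA, the antioxidant response element core TGACNNNGC, the GC box GGGCGG or the letters TATAA.
Procr, chr2:155750967-155751116, plus strand: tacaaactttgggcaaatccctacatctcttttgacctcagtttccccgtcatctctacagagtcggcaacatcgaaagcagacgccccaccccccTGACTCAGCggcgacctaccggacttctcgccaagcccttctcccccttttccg
Tnfrsf12a, chr17:23677469-23677699, minus strand: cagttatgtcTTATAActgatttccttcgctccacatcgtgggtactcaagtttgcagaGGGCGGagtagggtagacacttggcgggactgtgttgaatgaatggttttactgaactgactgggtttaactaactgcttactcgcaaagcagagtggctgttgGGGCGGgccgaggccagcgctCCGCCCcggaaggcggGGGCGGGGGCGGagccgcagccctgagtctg
Amigo2, chr15:97247288-97247537, minus strand: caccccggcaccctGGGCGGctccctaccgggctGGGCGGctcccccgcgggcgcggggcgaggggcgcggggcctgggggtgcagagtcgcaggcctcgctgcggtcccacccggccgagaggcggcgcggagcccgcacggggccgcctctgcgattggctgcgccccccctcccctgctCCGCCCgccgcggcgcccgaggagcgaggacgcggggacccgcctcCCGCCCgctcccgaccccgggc

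The Procr stretch held 1 AP-1 match, whose first base lies 54 bases before the first GENCODE start and 154 bases before the RefSeq start, and the match to the antioxidant response element core overlaps it. Over the 250 bases before the RefSeq start, 6.75% of 32851 RefSeq windows held an AP-1 match and 10.2% held the antioxidant response element core. The Tnfrsf12a stretch held 5 GC boxes, and its 2 matches to TATAA overlap on opposite strands. The Amigo2 stretch held 4 GC boxes, and 84% of its bases were G or C. A GC box was found in 32.7% of all windows and TATAA in 22.8%. The window of Cd44 held none of these letters, nor the cAMP response element TGACGTCA, which 1.55% of windows hold. These matches are runs of letters and say nothing about what binds there.

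The data are 3′ mRNA-Seq libraries (QuantSeq), in which reads come from the 3′ end of polyadenylated RNA. The tables hold a total and a mean for each group per transcript, and no value per library, so neither a standard deviation nor a test between libraries can be given, and the depth of each library is unknown. In every receptor row the deposited total matched the sum implied by 6 ATP and 5 Control libraries at these means, with a relative difference of at most 4.25e-15. The labels name neither cultures nor animals for the libraries. By the codes in their titles, 3 ATP libraries stand in one series, 2 Control libraries in another and 3 of each group in one more, and with pooled means these series and the treatment cannot be told apart. In the table of gliosis genes the values behave like estimated counts without scaling, and in the tables of significant genes, cell motility and MAPK cascade like a scaled signal. Over 49 transcripts in both kinds of table, the ratio of ATP to Control was a median of 1.16 times as large in the gliosis table (0.977 to 1.27). Without the receptors this factor was 1.15 over 43 transcripts. The receptors' ratios of the gliosis table are therefore also given divided by 1.16, those of other genes undivided unless stated, and exact (Clopper-Pearson) 95% intervals cover counting error only.

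**Figure D1:**
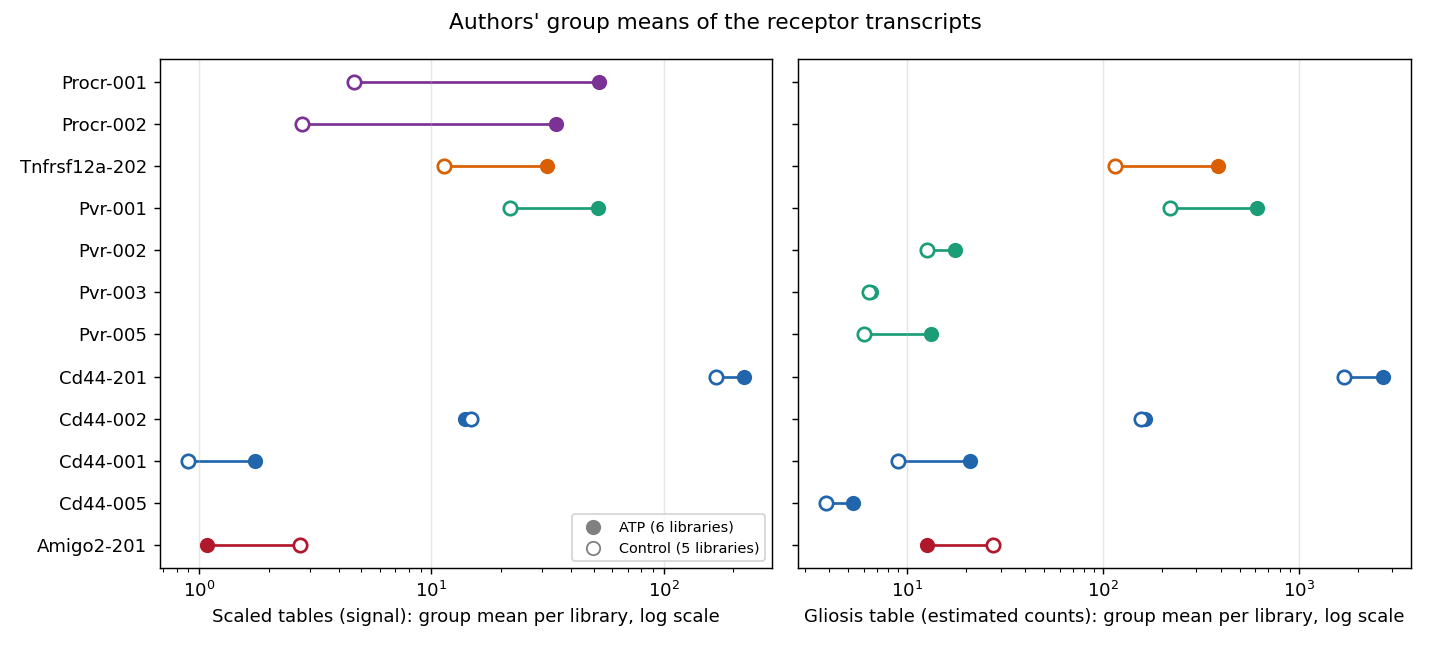
Group means of the 12 receptor transcripts in the scaled tables (left, signal per library) and in the gliosis table (right, estimated counts per library), both on a log axis. Filled circles are the ATP means over 6 libraries and open circles the Control means over 5. Procr, Tnfrsf12a and Pvr-001 lie to the right of their Control means, Amigo2-201 lies to the left, and Cd44-002 changes side between the panels.

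Procr had the highest ratio of the 5 genes. Procr-001 had an ATP mean of 52.8 and a Control mean of 4.66 on the scaled signal, an 11.3-fold difference (log2 ratio 3.50). Procr-002 had 34.5 in ATP and 2.78 in Control, a 12.4-fold difference (log2 ratio 3.63). Both transcripts thus differed to a like extent. They ranked 10 and 8 from the highest ratio among the 2071 transcripts of the table of significant genes. Their Control means are low, so the ratios move with small offsets: with 1 unit added to each mean they were 9.52 for Procr-001 and 9.39 for Procr-002. Summed over both transcripts, Procr had 87.3 in ATP and 7.43 in Control, an 11.7-fold difference. Procr-001 made up 60.5% of this sum in ATP and 62.6% in Control, and Procr-002 made up 39.5% in ATP and 37.4% in Control. Procr has no row in the gliosis table, so no counting interval can be given for it. Since Procr is best known from endothelium, 9 endothelial markers were looked up, Pecam1, Cdh5 and Kdr among them, and 0 of 9 has a row in any table. A gene without a row may be undetected, may not differ or may have been left out of a table, so this gives no level of endothelial RNA, and its part in the result was not tested.

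Of 21 genes of the protein C, thrombin receptor and coagulation list, 2 have a row, both in the table of significant genes. Tfpi-003, tissue factor pathway inhibitor, had 6.52 in ATP and 16.6 in Control, 2.55-fold lower with ATP. Plaur-001, the urokinase receptor, had 4.54 in ATP and 1.75 in Control, a ratio of 2.60; it was named after its values were seen, because its means lie under the 10 units otherwise asked for. The activators and ligands of the list, such as Proc and Thbd, have no row.

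Tnfrsf12a followed with a single listed transcript. Tnfrsf12a-202 had 31.4 in ATP and 11.3 in Control on the scaled signal, a ratio of 2.77 (log2 1.47), rank 165 from the highest of 2071. The gliosis table gave 2307 estimated counts over the ATP libraries and 575 over the Control libraries, a ratio of means of 3.34 (3.05 to 3.67), or 2.89 after division by the factor between tables. It ranked 19 from the highest ratio of the 222 transcripts of the gliosis table. The ATP mean was above the Control mean in both tables, in the gliosis table by more than counting error, while the spread between libraries is not known.

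Of 21 genes of the ligand and NF-κB list of Tnfrsf12a, 6 have a row. In the table of significant genes 3 of these were higher and 3 lower in ATP at 1.5-fold, near the 47.8% and 52.2% of all its transcripts. Its ligand TWEAK (Tnfsf12-001) had 12.9 in ATP and 24.2 in Control, 1.87-fold lower with ATP while the receptor was higher. Birc2-202, which encodes the ubiquitin ligase cIAP1, had 6.26 in ATP and 15.6 in Control, 2.48-fold lower, while Birc2-001 of the cytokine response table had a ratio of 1.21 and was named after its values were seen. Nfkbib-002, an inhibitor of NF-κB, had 25.2 in ATP and 14.9 in Control, a ratio of 1.69. The other 3 had means under 10 and were named after their values were seen. Among them the kinase Chuk-002 had a ratio of 1.91 and the adaptor Traf6-001 a ratio of 1.62, while Map3k14-002, the NF-κB inducing kinase, was 2.82-fold lower. The table of significant genes was limited by fold, so smaller differences could not appear there. The cytokine response table also lists Chuk-001 at a ratio of 2.10 and Chuk-003 at 1.05.

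Pvr was listed with 4 transcripts, of which Pvr-001 carried most of the counts. Pvr-001 had 52.0 in ATP and 21.9 in Control on the scaled signal, a ratio of 2.38 (log2 1.25), rank 266 of 2071. In the gliosis table it had 610 estimated counts per library in ATP and 221 in Control, a ratio of 2.76 (2.58 to 2.96), or 2.39 after division by the factor. The counting intervals of Tnfrsf12a-202 and Pvr-001 in the gliosis table do not overlap. They hold no spread between libraries, so no difference between these genes is read from this.

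The minor Pvr transcripts had estimated ratios from 1.02 to 2.19, with counting intervals that overlap one another. Pvr-005 had 79 counts summed over the ATP libraries and 30 over the Control libraries, a ratio of means of 2.19 (1.42 to 3.46). Pvr-002 had means of 17.5 in ATP and 12.6 in Control, a ratio of 1.39 (1.01 to 1.93). Pvr-003 had 6.54 in ATP and 6.40 in Control, a ratio of 1.02 (0.620 to 1.67). Divided by the factor these ratios were 1.90 for Pvr-005, 1.2 for Pvr-002 and 0.883 for Pvr-003. The divided intervals of Pvr-002 (0.870 to 1.67) and Pvr-003 (0.536 to 1.45) include 1, so counting error alone leaves their direction open. The divided intervals take the factor as exact. They hold neither the spread between libraries nor the error of dividing reads among transcripts, so they set no direction for Pvr-005 either. Within a gene a factor shared by its transcripts cancels, but the factor between tables varied from transcript to transcript (0.977 to 1.27). Only Pvr-001 has a scaled row, so the comparisons within Pvr hold for the gliosis table alone. There the ratio of Pvr-001 was 1.99 times that of Pvr-002 (1.42 to 2.77) and 2.70 times that of Pvr-003 (1.64 to 4.48). Against Pvr-005 it was 1.26 times as large, with an interval that includes 1 (0.794 to 1.95). The share of Pvr-001 among the listed Pvr counts was 94.2% in ATP (93.5 to 94.97) and 89.8% in Control (88.0 to 91.5). The share of Pvr-002 was 2.71% in ATP (2.22 to 3.26) and 5.13% in Control (3.96 to 6.51). Pvr-003 made up 1.01% in ATP (0.715 to 1.37) and 2.60% in Control (1.79 to 3.66). The summed counts of the 4 transcripts were whole numbers, 3884 in ATP and 1229 in Control, although those of single transcripts partly were not, so reads had been divided among transcripts of the gene. The gene as a whole had a ratio of 2.63 (2.47 to 2.81).

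Of 21 genes of the list of nectins, nectin-like proteins and binding partners, 2 have a row. Both were lower in ATP in the table of significant genes, where 52.2% of all transcripts were lower at 1.5-fold. Nectin2-001, a nectin that binds some of the same lymphocyte receptors as Pvr, had 20.4 in ATP and 49.99 in Control, 2.45-fold lower. Pdgfrb-001, a receptor for platelet-derived growth factor typical of fibroblasts and mural cells, had 18.4 in ATP and 68.8 in Control, 3.74-fold lower. Pvr thus stood opposite to its relative Nectin2 in the same table.

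**Figure D2:**
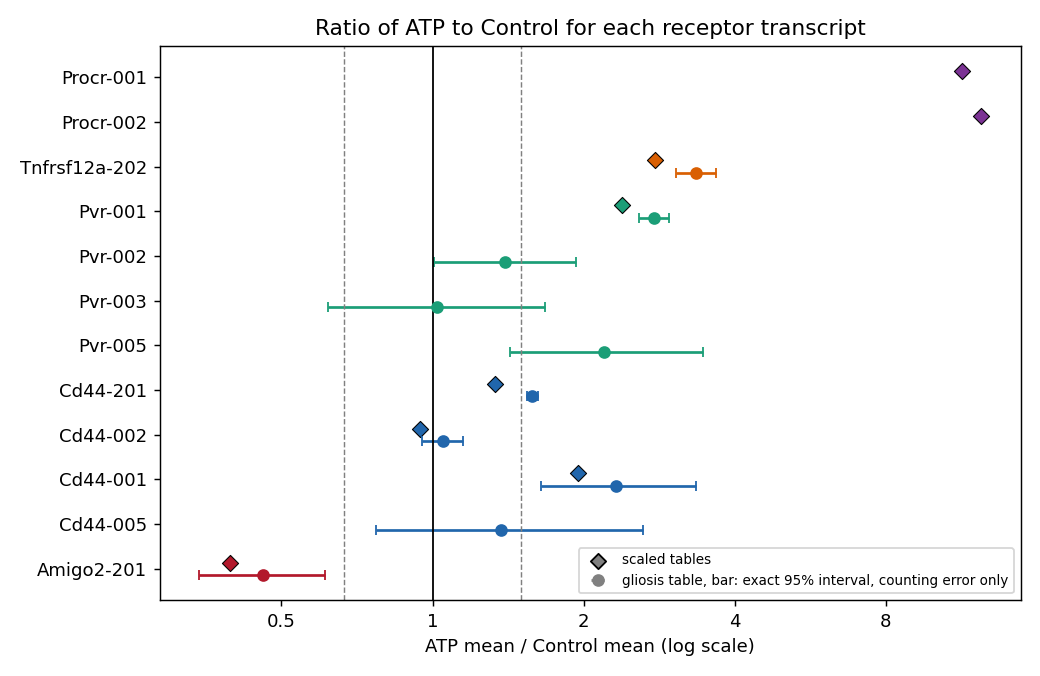
Ratio of the ATP mean to the Control mean for each receptor transcript, on a log axis. Diamonds are the scaled tables, circles the gliosis table with its exact 95% counting interval, the solid line marks a ratio of 1 and the dashed lines 1.5-fold in either direction. The 2 Procr transcripts sit at 11.3 and 12.4, Amigo2-201 lies left of 1 in both tables, and the intervals of Pvr-003, Cd44-002 and Cd44-005 cross 1.

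Cd44 had the highest signal and counts of the 5 genes, neither of which is divided by length, and a small difference between groups. Cd44-201 had 223 in ATP and 168 in Control on the scaled signal, a ratio of 1.33 (log2 0.41), with the same values in the motility and MAPK tables. In the gliosis table it had 2680 estimated counts per library in ATP and 1696 in Control, a ratio of 1.58 (1.54 to 1.62), or 1.37 after division by the factor. It is thus past 1.5-fold only on the scale of the gliosis table. Its total ranked 10 among the 325 transcripts of the motility table and 29 among the 222 of the gliosis table.

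Cd44-002 had 13.996 in ATP and 14.8 in Control on the scaled signal, 1.06-fold lower with ATP. The gliosis table gave 163 in ATP and 156 in Control, a ratio of 1.05 (0.952 to 1.15), so its direction turns with the table. Cd44-001 had 20.9 in ATP and 9.02 in Control in the gliosis table, a ratio of 2.32 (1.65 to 3.36), and a ratio of 1.95 on the scaled signal from means of 1.74 in ATP and 0.892 in Control. Cd44-005 had 5.26 in ATP and 3.84 in Control in the gliosis table, a ratio of 1.37 (0.772 to 2.62), or 1.18 after division by the factor. The estimated ratios of the Cd44 transcripts therefore differed. The counting intervals include neither the error of dividing reads among transcripts nor the spread between libraries. In the gliosis table the ratio of Cd44-201 was 1.51 times that of Cd44-002 (1.37 to 1.67) and 0.681 times that of Cd44-001 (0.470 to 0.960), and on the scaled signal these values were 1.41 and 0.682. The share of Cd44-201 was 93.4% in ATP (93.0 to 93.8) and 91.0% in Control (90.4 to 91.5). That of Cd44-002 was 5.68% in ATP (5.34 to 6.04) and 8.35% in Control (7.79 to 8.93). Summed over its listed transcripts, Cd44 had a ratio of 1.54 (1.501 to 1.58) in the gliosis table and 1.302 on the scaled signal. The older transcript names of the tables could not be tied to GENCODE M21 entries, so which splice form a name stands for is not known here. GENCODE M21 lists 9 Cd44 transcripts with 4 groups of 3′ ends more than 50 bases apart. Transcripts that share an end cannot be told apart by reads from that end, and the split is then an estimate of the software.

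**Figure D3:**
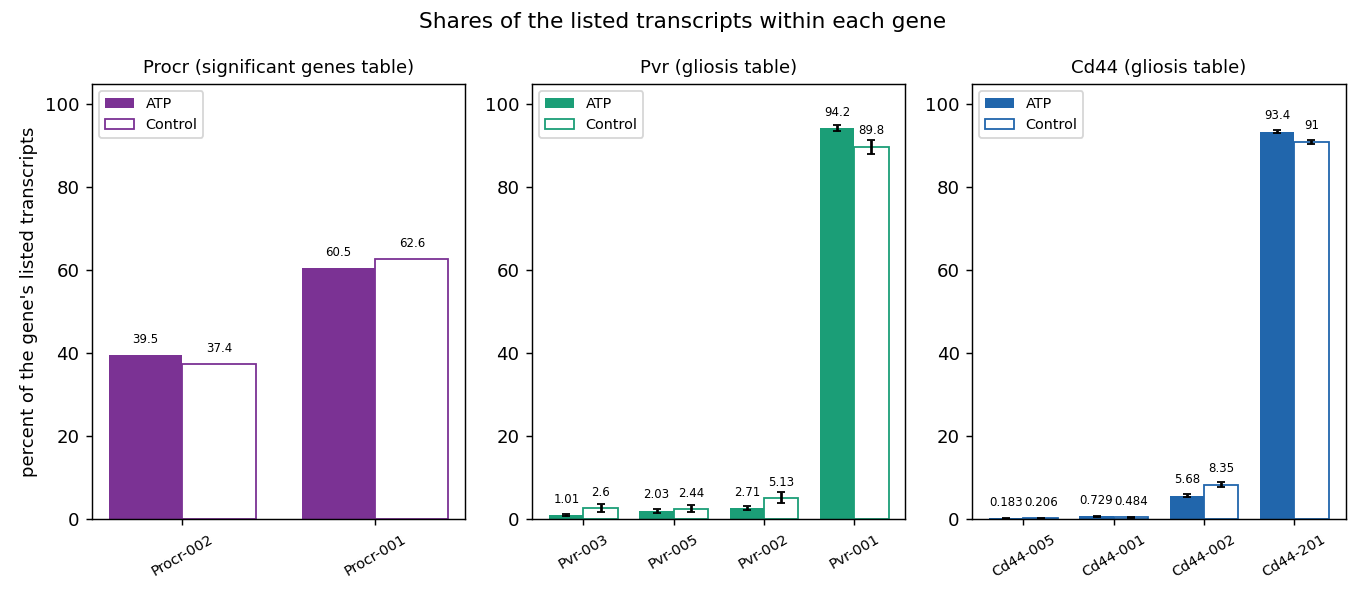
Percent of each gene's listed transcripts taken by each transcript, for Procr (scaled signal), Pvr and Cd44 (gliosis table). Filled bars are ATP, open bars Control, and error bars are exact 95% binomial intervals for counting error, which cannot be given for Procr. Pvr-001 takes 94.2% in ATP and 89.8% in Control, and Cd44-201 takes 93.4% in ATP and 91.0% in Control.

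The hyaluronan list holds 19 genes of synthesis, turnover and other receptors of the Cd44 ligand, of which 2 have a row. Tnfaip6-001, a hyaluronan-binding protein made in inflammation, had 8.78 in ATP and 1.95 in Control, a ratio of 4.50. The hyaluronidase Hyal1 has 2 transcripts, of which the one with the larger total, Hyal1-007 in the cytokine response table, had 16.4 in ATP and 12.6 in Control, within 1.5-fold. Hyal1-002 had 5.50 in ATP and 2.21 in Control, a ratio of 2.48. Tnfaip6-001 and Hyal1-002 lie under the 10 units asked for and were named, with Hyal1-007, after their values were seen. The hyaluronan synthases Has1, Has2 and Has3 have no row.

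Of 20 other ligands, sheddases and cytoskeletal partners of Cd44, 7 have a row. Osteopontin (Spp1-001), a secreted ligand, had 707 in ATP and 277 in Control in the gliosis table, a ratio of 2.55, or 2.21 after division by the factor. Serglycin (Srgn-201), a proteoglycan ligand, had 16.3 in ATP and 35.9 in Control, 2.20-fold lower. Versican (Vcan-001) and Hgf-001 lay within 1.5-fold, at ratios of 0.866 for Vcan and 1.12 for Hgf, and Hgf lay on the other side of 1, at 0.971, after division by the factor. Ezr-001, ezrin, which ties the tail of Cd44 to actin, had a scaled 126 in ATP and 71.9 in Control, a ratio of 1.75. Fibronectin (Fn1-006) had 11.4 in ATP and 33.1 in Control, 2.90-fold lower, and Fn1-012, its transcript with the largest total, had 691 in ATP and 1793 in Control in the cytokine response table, 2.59-fold lower. The remaining gene, Ank3-017, which encodes the membrane linker ankyrin-G, had means of 1.63 in ATP and 5.67 in Control and was named after its values were seen. At 1.5-fold, 1 of these genes was higher and 1 lower of 4 in the gliosis table (32.9% and 27.5% of all its transcripts), and 1 was higher and 2 lower of 3 in the table of significant genes (47.8% and 52.2%), so nothing is read from these counts.

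Amigo2 was the 1 gene of the 5 with a lower ATP mean in every row. Amigo2-201 had 76 counts over the ATP libraries and 138 over the Control libraries in the gliosis table, which are means of 12.7 in ATP and 27.6 in Control. It was 2.18-fold lower with ATP (1.64 to 2.92), or 2.52-fold lower after division by the factor. On the scaled signal it had 1.08 in ATP and 2.73 in Control, 2.53-fold lower (log2 ratio -1.34). Its leading signal was the lowest of the 5 genes, not divided by length, with a total that ranked 1980 of the 2071 significant transcripts. With 1 unit added to each scaled mean the ratio was 0.557, against 0.395 without, so its size rests on low values.

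Of 24 genes of the list of AMIGO proteins, related leucine-rich repeat adhesion proteins and partners, Egfr alone has a row. Egfr-001 had 22.2 in ATP and 48.5 in Control in the MAPK table, 2.19-fold lower, and Egfr-002, named after its values were seen, had 2.05 in ATP and 5.86 in Control. Amigo1 and Amigo3 have no row.

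At 1.5-fold, 6 of the 12 transcripts were higher in ATP, namely both Procr transcripts, Tnfrsf12a-202, Pvr-001, Pvr-005 and Cd44-001. Amigo2-201 was lower, and the other 5 lay between. With 1 unit added to each mean Cd44-001 had a ratio of 1.45 and was no longer past the limit. At 2-fold, 5 of 12 were higher, and 5 of the 8 with a group mean of at least 10 were higher at 1.5-fold. This minimum mixes units, since transcripts without a scaled row were judged on estimated counts. Pvr-002 and Pvr-005 passed it on ATP means of 17.5 and 13.2 counts. Amigo2-201 failed it on the scaled signal, although its Control mean was 27.6 estimated counts. In the gliosis table, 5 of 10 receptor rows were higher at 1.5-fold, against 32.9% of all 222 transcripts, and 1 was lower, against 27.5%. The median ratio of these 10 rows was 1.49, beside 1.04 over the whole table. In the table of significant genes, 4 of 5 rows were higher, against 47.8% of all 2071 transcripts, and 1 was lower, against 52.2%. That table was limited by fold, so its 2 shares add up to the whole. Of the 3 Cd44 rows, 1 was higher in the motility table, against 33.2% of its transcripts, and the same row in the MAPK table, against 26.8%. The genes were chosen on this contrast, so nothing is read from these shares about the receptors as a group.

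**Figure D4:**
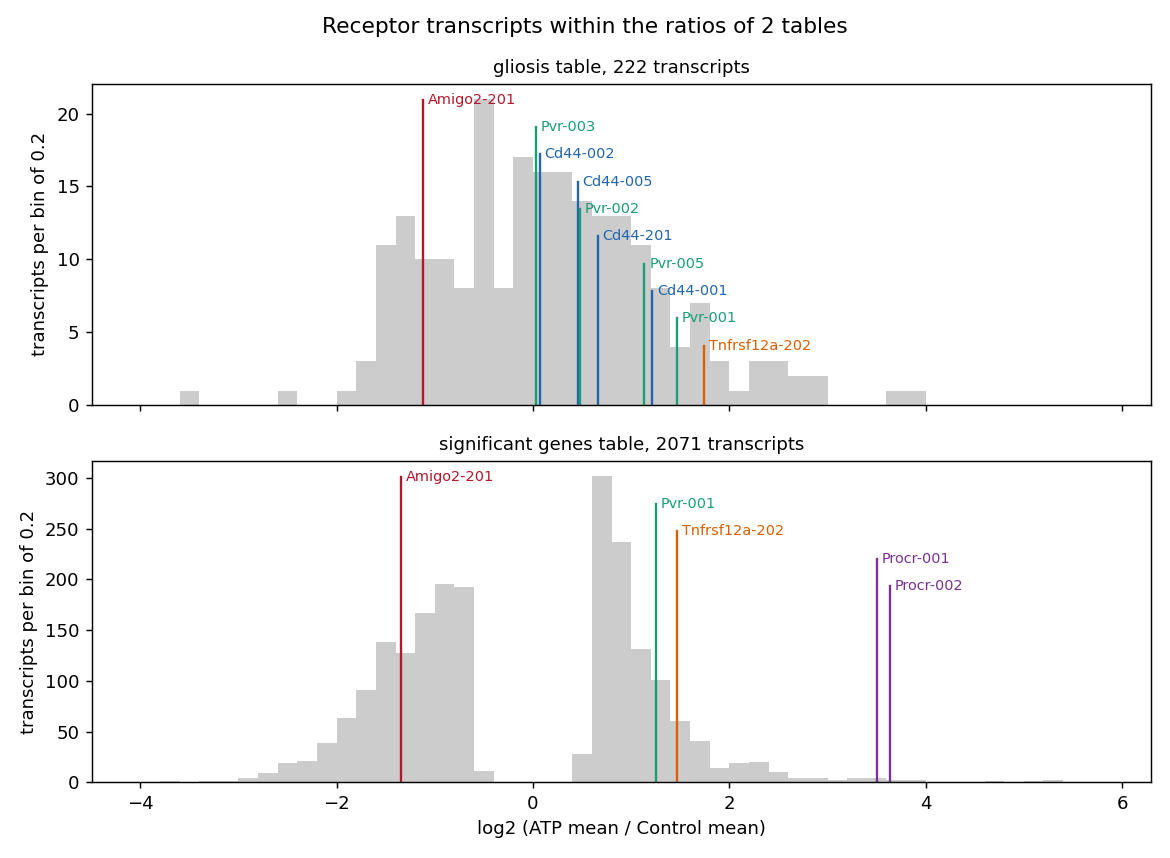
Distribution of log2 (ATP mean / Control mean) over the 222 transcripts of the gliosis table (top) and the 2071 of the table of significant genes (bottom), with the receptor transcripts as coloured lines whose height has no meaning. The gap around 0 below comes from the authors' limit on fold. Amigo2-201 lies on the negative side of both panels and the 2 Procr transcripts, at 3.50 and 3.63, near the upper end.

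Cd44 and Amigo2 are themselves on published lists of reactive astrocyte genes, which places them among other members of those lists in the gliosis table. Of all 222 transcripts of that table, 32.9% were higher and 27.5% lower at 1.5-fold, before any division by the factor. The lists were chosen with earlier results known, so nothing is read from the counts of list genes below. Of 9 A1 genes with a row, 0 were higher at 1.5-fold and 6 were lower, Amigo2 among them, and 7 were lower after division by the factor. The complement component C3 had 4285 in ATP and 12501 in Control, 2.92-fold lower, and the complement inhibitor Serping1 was 2.51-fold lower. Of 10 pan-reactive genes with a row, 3 were higher and 4 were lower. Cd44-201, at 1.58, stood beside the small heat shock protein Hspb1, also at 1.58. Gfap, the intermediate filament of glia, was also higher as deposited, at 1.76, but the total in its row matched only with the group means exchanged, which leaves its direction open. With the Gfap means exchanged, 2 were higher and 5 lower. After division by the factor Cd44-201 and Hspb1 lay within 1.5-fold, and 1 gene, Gfap as deposited, was higher and 6 were lower. The metalloreductase Steap4 was 2.996-fold lower, and Osmr, the oncostatin M receptor, was 2.89-fold lower. Cp was 2.70-fold lower and Serpina3n was 2.45-fold lower. Of 9 A2 genes with a row, 4 were higher and 3 were lower. Ptgs2, which encodes cyclooxygenase-2, had 451 in ATP and 73.2 in Control, a ratio of 6.17, and the surface protein Cd109 had a ratio of 2.93. Ptx3 went the other way, with 443.5 in ATP and 1020 in Control, 2.30-fold lower. Sphk1 was counted as higher by Sphk1-007, at a ratio of 1.84, while Sphk1-002 on the scaled signal was 3.07-fold lower.

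**Figure D5:**
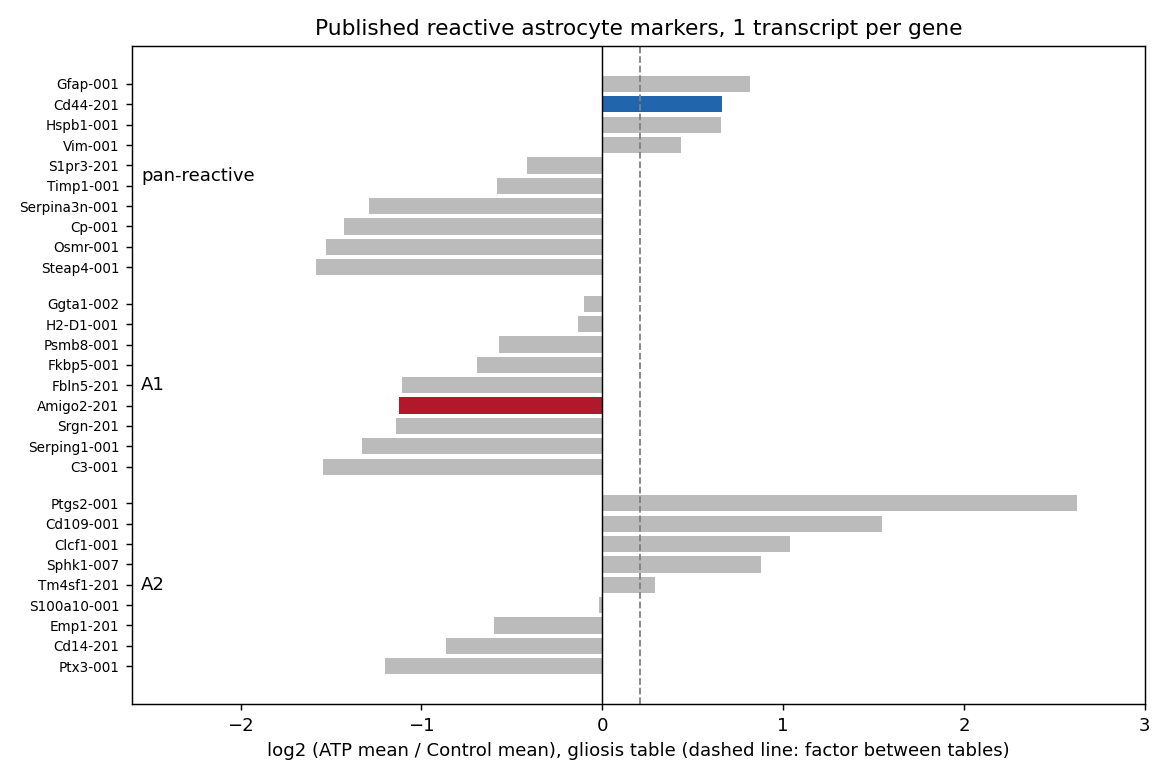
Bars give log2 (ATP mean / Control mean) in the gliosis table for published pan-reactive, A1 and A2 astrocyte markers, with 1 transcript per gene, and the dashed line marks the median factor between the tables. Cd44 (blue) lies on the positive side of the pan-reactive set and Amigo2 (red) on the negative side with the rest of the A1 set, while the A2 set lies on both sides. The direction of Gfap is open.

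Markers of other cells that the cultures could hold also differed between the groups. At 1.5-fold, 32.9% of all transcripts of the gliosis table were higher and 27.5% lower. In the table of significant genes, limited by fold, these shares were 47.8% and 52.2%, so nothing is read from the counts of markers. Of 8 fibroblast markers 3 have a row and all were lower in ATP. Dcn-202, decorin, had 22518 in ATP and 51612 in Control in the gliosis table, 2.29-fold lower, and Col3a1-001 had a scaled 826 in ATP and 2870 in Control, 3.47-fold lower. The smooth muscle marker Myl9-001, the 1 of 8 with a row, was 3.46-fold lower in the gliosis table. Of 8 neuronal markers 3 have a row and were higher in the table of significant genes, such as Uchl1-002 with 155 in ATP and 82.1 in Control, a ratio of 1.88. Of 8 macrophage markers, Cd68-001 had 43.05 in ATP and 22.6 in Control, a ratio of 1.91, and Cd14-201 had 22.5 in ATP and 41 in Control, 1.82-fold lower. Of the enteric glia markers reported here only Gfap has a row, so the label of the cultures could not be checked against Sox10 or S100b. In such bulk RNA fewer cells of a type and less RNA per cell cannot be told apart, and the part of these markers in the receptor values was not tested.

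For the leading transcript of each gene, the 3 transcripts of other genes with the nearest group means in the same table were looked up. The measure was the distance over the log2 of the 2 means, which rests on 2 values only. Procr-001 was nearest to Serbp1-004, at a distance of 0.161 with 51.6 in ATP and 5.19 in Control, then to Slc7a11-001 and Rps26-ps1-001. Tnfrsf12a-202 was nearest to Spata13-002 at 0.0799, then to Nap1l5-001 and Rgs2-001. Pvr-001 was nearest to Zfp703-001 at 0.00436, then to 2 transcripts of Acsl4. Amigo2-201 was nearest to Sned1-001 at 0.0395, then to Col5a2-002 and Spata24-201. For Cd44-201 the MAPK table was searched, which holds 228 transcripts and in which its total ranked 9. Map4k4-019 lay nearest at 0.381, then Jun-001 and Akap12-201. The other genes were searched among 2071 transcripts, so the larger distance is not read as a trait of Cd44.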

How the data were processed

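RNA of 11 libraries was sequenced by the authors as QuantSeq 3′ mRNA-Seq (single-end) and processed in Partek per the labels, with no version stated. Aligner, build and annotation were not given in the sources used here. For the gliosis genes the authors deposited values that behave like estimated counts, unscaled, and the authors' other transcript tables hold a signal that behaves as scaled between libraries, by a method that is not stated. Columns with the authors' p-values, adjusted p-values, ratios and fold changes were not used, and neither were the table of GO terms and any value of a single library, of which there were 0 columns.

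Ratios were computed from the 2 group means, and a transcript was counted as higher or lower at 1.5-fold. Counting intervals came from 6 times the ATP mean and 5 times the Control mean, rounded to whole counts. Intervals for the ratio of 2 ratios were conditional exact odds ratio intervals. The counting intervals of ratios, the factor between tables and the fold limit were tried on simulated counts with a single depth per group. These counts held no spread between libraries and no division of reads among transcripts. The other steps were not tried in this way. The genes, the lists of partners and markers and the transcripts compared were chosen with earlier results of these data known. Named were all receptor transcripts and the 3 nearest transcripts. Of each list, up to 4 genes with the largest absolute log2 ratio at a group mean of at least 10 were named (a selection of them for the marker lists). Hspb1, Gfap, Vcan, Hgf and further transcripts of some list genes were named outside this rule, like the genes marked as such above. List genes were counted once, by the transcript with the largest total in the table counted, and the cytokine response, motility and MAPK tables did not enter these counts. Upstream bases came from RefSeq, where 4 of the 5 genes were matched, all but Pvr. The planned protein features were not computed. Tools were Python 3.11.15, NumPy 2.4.6, pandas 2.3.3, SciPy 1.17.1 and matplotlib 3.10.9.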

Additional observations from a re-analysis of the deposited data

How the results depend on the processing

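No paired analysis was possible because the tables hold group means and no value per library, and for the same reason no library could be left out. Across the alternatives run, no ratio past 1.5-fold changed direction. Adding the same amount to both means cannot turn a ratio. The factor between tables was also too small to turn a ratio past 1.5-fold. For these settings the outcome was therefore fixed, and it is no test of the direction. The gliosis table gave 1.58 for Cd44-201, 2.76 for Pvr-001 and 3.34 for Tnfrsf12a-202. Each lies above the counting interval placed around the scaled value, which was the limit set for a move. Both kinds of table come from the same libraries, so counting error does not measure this gap. Division by the factor gave 1.37 for Cd44-201, 2.39 for Pvr-001 and 2.89 for Tnfrsf12a-202. For Cd44-002 the gliosis table gave 1.05, which lies on the other side of 1 from its scaled value. A pseudocount of 1 gave 0.557 for Amigo2-201, 9.52 for Procr-001 and 9.39 for Procr-002, and a pseudocount of 0.1 gave 11.1 for Procr-001 and 12.0 for Procr-002. The sum over both Procr transcripts gave 11.7. Procr has no counting interval, so any shift in it counts as a move. With a larger group mean of at least 10, 0 of the 8 remaining transcripts were lower. Amigo2-201 is left out because it was judged on its scaled Control mean of 2.73, while Pvr-002 and Pvr-005 were judged on estimated counts. The Control mean of Amigo2-201 in the gliosis table is 27.6 estimated counts, so in that unit it would stay in. With any listed transcript in place of the one with the largest total, 1 A1 marker was higher and 2 other Cd44 ligands or partners were lower in the gliosis table. Choosing the gliosis table where a transcript has both gave 7 higher and 1 lower, and the sum of the 4 Pvr transcripts over the factor between tables gave 2.27; these were chosen after seeing the data, as were the factor without the receptors and the counts of list genes over the factor or with the Gfap means exchanged. With both of these changes, 0 pan-reactive genes were higher and 7 were lower. The depth behind the scaled means is unknown, and Cd44-005, Pvr-003 and Pvr-005 rest on the fewest counts.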
